A study of Mus musculus with 6 samples.

Results

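Epithelial-mesenchymal transition (EMT) transcription factors are DNA-binding proteins known to lower epithelial genes and raise mesenchymal ones in embryos, wounds and carcinomas. The 10 described here are Zeb1, Zeb2, Snai1, Snai2, Twist1, Twist2, Tcf4, Prrx1, Prrx2 and Foxc2. They were chosen by name, with earlier results of these data known, as the deposited annotations equal to these symbols. The gene lists used further on were chosen with the same knowledge, so their shares only describe them. Each of the 10 members had reads in every library. All 10 were among the 11125 genes tested, out of 14765 gene annotations with reads. The libraries came from Mvt1, a mouse mammary carcinoma line of the FVB/N strain. Stained cells were sorted on the surface protein CD24 into a CD24- and a CD24+ group, and RNA was taken from 3 plates of adherent cells of each. No treatment, transgene or time point separated the groups in the labels, and all 6 plates were grown in the same serum-containing medium. Independent sorts are not described, so SDs and p-values measure the spread between plates, which may be technical.

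Zeb1 and Zeb2 are zinc-finger repressors, and Snai1 and Snai2 belong to the Snail family of zinc-finger repressors. Both families are known to bind the E-box CAGGTG in promoters of cell junction genes. Twist1 and Twist2 are basic helix-loop-helix (bHLH) proteins that bind DNA as dimers with E proteins, of which Tcf4 is a member. Prrx1 and Prrx2 are paired-related homeobox proteins of limb and face mesenchyme, and Foxc2 is a forkhead protein of mesenchyme and lymphatic vessels. In carcinomas several of these factors are known to be switched on together, and the members of a pair are often not used alike.

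Between 9046025 and 25692147 reads of 47 nt were mapped per library, and 71.8% to 74.3% of them were annotated to a gene. The smallest library was CD24+ replicate 1, so its low counts carry the largest counting error. Levels are given in CPM, the reads of a gene scaled to the gene reads of its library, after TMM scaling, a correction for differences in library composition. Cd24a, the gene of the sorted marker, had 6.99 to 12.1 CPM in the CD24- libraries and 72.5 to 85.6 CPM in the CD24+ ones, which fits the sort. Krt8 and Krt18, keratins of simple epithelia, were abundant in both groups, while Cdh1 and Epcam, which define epithelial cells, were close to 0 in all libraries, as given further on.

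The members of each pair are related in sequence, so the reads were first examined for whether they can be told apart. No 47-nt window of a reference transcript of 1 member was found in its partner, for Twist1 and Twist2, Prrx1 and Prrx2, Snai1 and Snai2 or Zeb1 and Zeb2. The closest windows differed at 3 bases for Twist and Zeb, at 4 for Prrx and at 6 for Snail. The deposited coding reads below show how close the partners come. Each is written 5′ to 3′ on the strand of its gene, with capitals at the bases that differ from the partner, and is located in the genome build mm9. Twist1 is from chr12:34643373-34643419 (plus strand), Twist2 from chr1:93698596-93698642 (plus), Prrx1 from chr1:165192043-165192089 (minus), Prrx2 from chr2:30733991-30734037 (plus), Snai1 from chr2:167364593-167364639 (plus) and Snai2 from chr16:14707247-14707293 (plus).
Twist1: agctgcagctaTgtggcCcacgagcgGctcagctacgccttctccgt
Twist2: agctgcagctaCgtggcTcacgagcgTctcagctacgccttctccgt
Prrx1: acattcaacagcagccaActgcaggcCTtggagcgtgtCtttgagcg
Prrx2: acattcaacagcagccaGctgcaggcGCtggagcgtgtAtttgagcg
Snai1: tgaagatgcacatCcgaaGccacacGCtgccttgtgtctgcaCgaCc
Snai2: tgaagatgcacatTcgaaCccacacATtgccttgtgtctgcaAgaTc
The Twist1 sequence was read 1 time in CD24- libraries and 3 times in CD24+ ones, and the Twist2 sequence 0 and 3 times. The Prrx1 sequence was read 0 and 7 times, and the Prrx2 sequence 0 times and 1 time. The Snai1 sequence was read 1 time in CD24- libraries and 0 times in CD24+ ones, and the Snai2 sequence 0 times and 1 time. Because the authors mapped by exact match, a read of 1 member cannot count for the other through such similarity.

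Taken over the list, EMT transcription factors had more reads in CD24+ cells. Their summed level was 319 to 355 CPM in CD24- libraries and 618 to 709 CPM in CD24+ libraries, and the groups did not overlap. At an adjusted p below 0.05 (edgeR's quasi-likelihood test, adjusted by Benjamini-Hochberg over every gene tested), 8 of the 10 were higher in CD24+ cells, where 23.8% of all genes were. Zeb1 was lower, as were 22.3% of all genes, and Snai1 did not pass. In all 9 of the 10 passed in either direction, against 46.1% of all genes. With a log2 fold-change of at least 1 added, 6 members were higher, against 9.02% of all genes, and 0 were lower, against 5.37%. The values of the groups did not overlap for 9 members, against 57.3% of all genes (29.7% with CD24+ the higher). The median log2 fold-change (CD24+ minus CD24-) was 1.79 over the members and 0.02 over all genes tested. Snai2, included in these counts and this median, could be tested only because it was high in CD24+ cells. It passed the filter on low counts (1.01 CPM or more in 3 libraries) only through its CD24+ libraries. Genes named below that likewise reached this level in all 3 libraries of a single group are given as such. In bulk RNA, fewer expressing cells and less RNA per cell cannot be told apart.

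**Figure D1:**
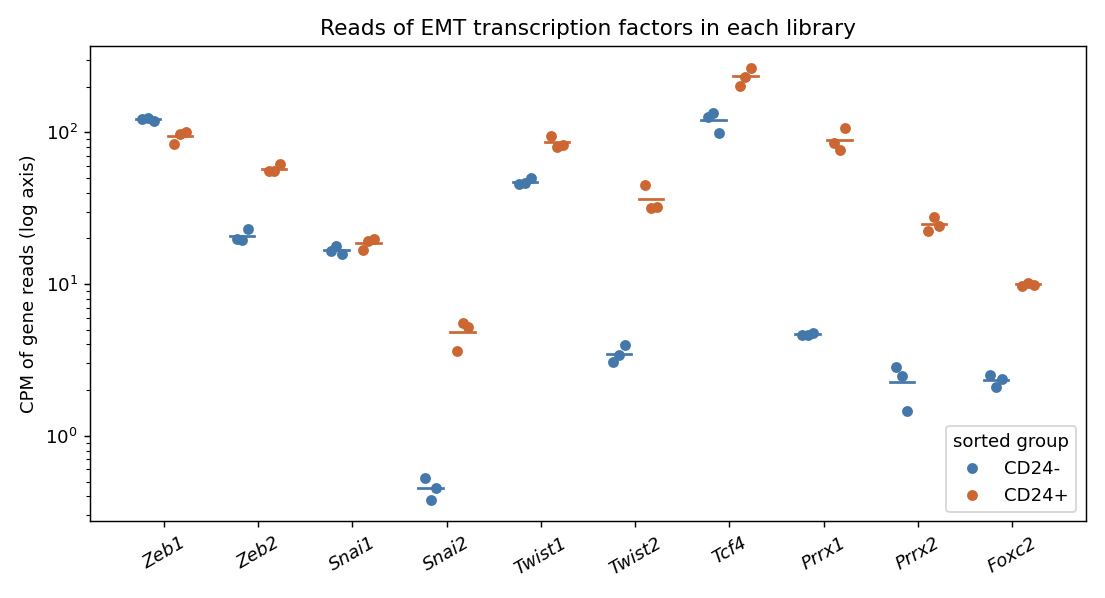
Level of each EMT transcription factor in each library, in CPM on a log axis. Each point is 1 library (blue CD24-, orange CD24+) and each bar the mean of 3 libraries. The groups lie apart for each gene except Snai1, with Zeb1 the only gene whose CD24- points are the higher ones.

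The homeobox genes Prrx1 and Prrx2 had the largest estimates, although those of Prrx2, Snai2 and Twist2 lay within 1 standard error of each other. Prrx1, whose reads lay between bases 165175233 and 165243804 of chromosome 1 (mm9), is a factor known to keep limb mesenchyme undifferentiated. It had 44, 49 and 42 reads in CD24- replicates 1, 2 and 3, and 540, 1355 and 2027 reads in CD24+ replicates 1, 2 and 3. Scaled to depth these were 4.63 to 4.74 CPM against 76.6 to 106 CPM. The lowest CD24+ library was thus far above every CD24- library, and the CD24- plates were nearly equal. The rise of 4.26 on the log2 scale (edgeR, adjusted p = 3.25e-08, standard error 0.16) was the largest of the 10.

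Prrx2, its paralog on chromosome 2 (bases 30700803 to 30736781, mm9), is known from the same mesenchymal tissues. CD24- libraries held 2.84, 2.47 and 1.47 CPM and CD24+ libraries 22.5, 27.5 and 24.0 CPM. CD24- replicate 3 was the lowest of the 6, with 13 reads, and no CD24+ library came near the CD24- range. The rise was 3.44 on the log2 scale (edgeR, adjusted p = 5.68e-07, standard error 0.20). An estimate built on the study's own steps used the median of the coverage along a transcript, quantile normalization and an added regularizer of 10. It gave 0.55 for Prrx2, past the threshold (limma, adjusted p = 1.42e-04). Per the paper, the regularizer makes genes of low expression show low fold-changes. Sizes from this estimate are therefore not comparable with those of edgeR. Prrx1 was not tested there, since its median coverage after quantile normalization reached 1 in fewer than 3 libraries.

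Both Twist genes rose. Twist1, the factor of early mesoderm and neural crest, had 45.3, 46.4 and 49.6 CPM on the CD24- plates, against 93.97, 79.9 and 82.9 CPM on the CD24+ plates. Every CD24+ library was above every CD24- one, by 0.86 on the log2 scale (edgeR, adjusted p = 3.67e-05, standard error 0.09). Its 4951 reads lay between bases 34642498 and 34644729 of chromosome 12 (mm9), and no sequence was seen more than 16 times in any single library.

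Twist2, known as Dermo1 for its place in the dermis, had few reads in CD24- cells. The CD24- libraries held 29, 36 and 35 reads (3.05, 3.41 and 3.95 CPM) and the CD24+ libraries 286, 559 and 610 reads (45.0, 31.6 and 31.97 CPM). CD24+ replicate 1, the smallest library, was the highest here, and the groups lay far apart. Its log2 fold-change was 3.36 (edgeR, adjusted p = 4.78e-07, standard error 0.19). The gene covers bases 93698051 to 93744602 of chromosome 1 (mm9), and an antisense gene of GENCODE M21, Gm29100, lies over its first exon. The library kit does not mark strand, so reads of both cannot be told apart there. The exon outside that overlap had 5, 9 and 7 reads in CD24- libraries and 98, 177 and 182 in CD24+ libraries.

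Tcf4, here the E protein of chromosome 18 (bases 69504192 to 69847643, mm9) and not the Wnt effector Tcf7l2 that shares its name, had the most reads of the 10. Its level was 126, 134 and 99.6 CPM in CD24- libraries and 201, 231 and 267 CPM in CD24+ libraries. CD24- replicate 3 was the lowest and CD24+ replicate 3 the highest, and the groups did not overlap. The rise was 0.96 on the log2 scale (edgeR, adjusted p = 1.8e-04, standard error 0.13). The median-coverage estimate gave 0.46 for Tcf4 and 0.57 for Twist1, both past the threshold (adjusted p = 7.04e-04 and 3.43e-04, limma).

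Of the Snail pair, Snai2 passed the test and Snai1 did not. Snai1, the Snail repressor of gastrulation, stood at 16.4, 17.9 and 15.7 CPM on the CD24- plates, against 16.7, 19.1 and 19.7 CPM on the CD24+ plates. The groups overlapped, and the difference of 0.16 on the log2 scale did not pass (edgeR, adjusted p = 0.298, standard error 0.12). This does not show equal levels. The sign of the Snai1 difference turned under the median-coverage estimate (-0.03, limma, adjusted p = 0.724). Its reads lay between bases 167363703 and 167368269 of chromosome 2 (mm9).

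Snai2, or Slug, a factor of neural crest and of mammary basal cells, was the rarest member. CD24- libraries held 5, 4 and 4 reads and CD24+ libraries 23, 98 and 100 reads, between bases 14705956 and 14709440 of chromosome 16 (mm9). In CPM these were 0.526, 0.379 and 0.451 against 3.62, 5.54 and 5.24. No CD24+ library reached down to the CD24- range, and the smallest CD24+ library was the lowest of its group. Its log2 fold-change was 3.43 (edgeR, adjusted p = 1.28e-05, standard error 0.32), with the largest standard error of the 10 members.

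Zeb1 and Zeb2 went opposite ways. Zeb1 had 121, 125 and 119 CPM in CD24- libraries and 84.2, 97.5 and 101 CPM in CD24+ libraries. All 3 CD24+ libraries were below the CD24- ones (edgeR, log2 change -0.36, adjusted p = 0.00605, standard error 0.09). This was the smallest change among the members that passed, and it was not called (-0.24, edgeR, adjusted p = 0.0975) when each distinct sequence was counted once per library. Under the median-coverage estimate Zeb1 was at -0.19 (limma, adjusted p = 0.0412). Its reads lay between bases 5591881 and 5774950 of chromosome 18 (mm9), where the locus Gm10125 of GENCODE M21 overlaps it.

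Zeb2, known for its part in neural crest and myeloid cells, rose where Zeb1 fell. Its level was 19.9, 19.5 and 22.9 CPM in CD24- libraries, against 55.6, 55.8 and 61.3 CPM in CD24+ libraries, with a wide gap between the groups. This was a log2 fold-change of 1.47 (edgeR, adjusted p = 1.67e-06, standard error 0.10). The median-coverage estimate gave 0.22 (limma, adjusted p = 0.00208). The antisense gene Zeb2os overlaps it, and without strand their reads cannot be told apart. The reads of Zeb2 lay between bases 44839229 and 44968835 of chromosome 2 (mm9).

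Foxc2, the forkhead member, had 2.53, 2.09 and 2.37 CPM in CD24- libraries and 9.76, 10.2 and 9.91 CPM in CD24+ libraries. The plates of each group were close to each other and the groups lay apart. It rose by 2.10 on the log2 scale (edgeR, adjusted p = 7.43e-06, standard error 0.18) on 62 to 189 reads per CD24+ library, all from the single exon of the gene on chromosome 8 (bases 123640442 to 123642784, mm9). With the median-coverage estimate the change was 0.19 (limma, adjusted p = 0.00129).

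**Figure D2:**
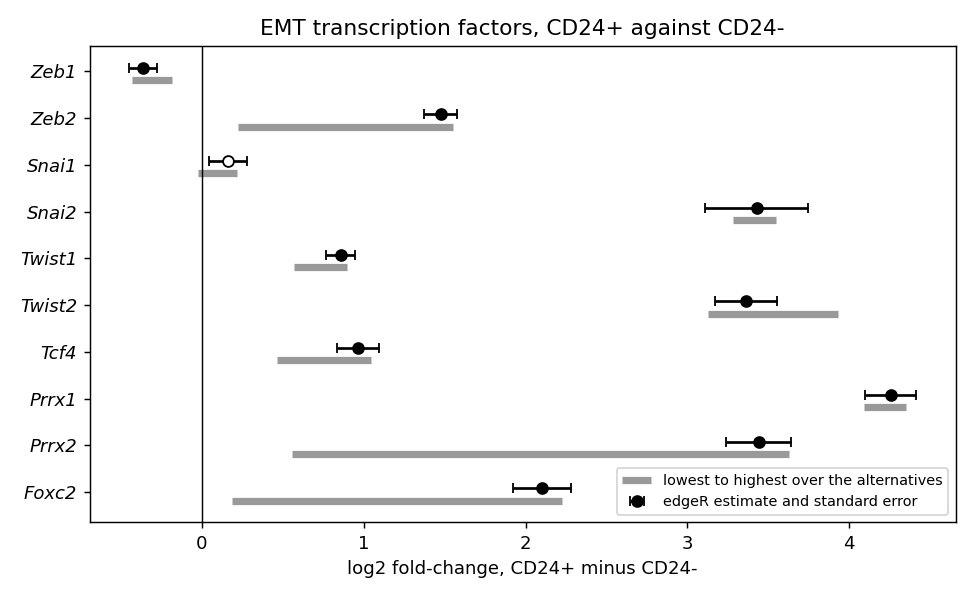
Log2 fold-change of each member, CD24+ minus CD24-, with the standard error from edgeR (filled, adjusted p below 0.05; open, not). The grey bar runs from the lowest to the highest value over the alternative settings. The median-coverage estimate gave the low ends for Zeb2 (0.22), Prrx2 (0.55) and Foxc2 (0.19). Its regularizer makes fold-changes of lowly expressed genes small, so these ends are not comparable in size with the edgeR values. Prrx1, Snai2 and Twist2 have no value under that estimate, so the lengths of their bars cannot be compared with the others.

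The members with few reads in CD24- cells can be set side by side by the share of the CD24+ level that remained there. The CD24- mean was 0.0942 of the CD24+ mean for Snai2, 0.0959 for Twist2 and 0.0915 for Prrx2. Prrx1 stood lower, at 0.0523, and Foxc2 higher, at 0.234. These are descriptions of 3 plates a group, without a test between genes.

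Levels of different genes were compared per length, in RPKM, the CPM of reads in a reference transcript of GENCODE M21 per kb of its length, which took in 80.3% to 100% of a member's reads. In CD24- cells the order of the RPKM values ran Twist1 (28.7), Zeb1 (20.1), Tcf4 (12.2), Snai1 (9.91), Zeb2 (2.17), Prrx2 (1.47), Twist2 (1.42), Foxc2 (0.854), Prrx1 (0.761) and Snai2 (0.224). Tcf4 and Snai1, Prrx2 and Twist2, and Foxc2 and Prrx1 were neighbours whose plates overlapped. The other neighbours in this order did not overlap.

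In CD24+ cells the order ran Twist1 (52.2), Tcf4 (24.2), Twist2 (23.7), Prrx2 (15.7), Zeb1 (15.6), Prrx1 (14.4), Snai1 (10.9), Zeb2 (5.96), Foxc2 (3.66) and Snai2 (2.36). Here Tcf4 overlapped with Twist2, Prrx2 with Zeb1 and Zeb1 with Prrx1. Twist1 was thus first and Snai2 last in both groups, while Prrx1 moved from the ninth place to the sixth.

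**Figure D3:**
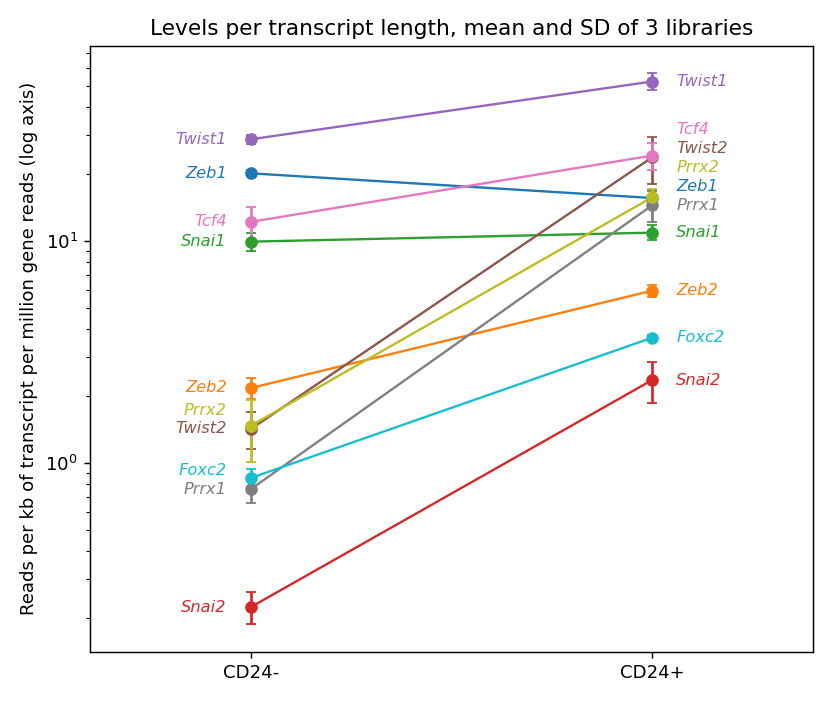
Mean level in RPKM (reads per kb of transcript, scaled to gene reads; log axis) in CD24- and CD24+ cells, with the SD of 3 libraries. Twist1 is highest and Snai2 lowest on both sides, Prrx1, Prrx2, Twist2 and Snai2 have the steepest lines, Zeb1 slopes down, and Snai1 is nearly flat.

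The ratio of RPKM values within each pair was compared between the groups. Zeb2 stood at 0.108 ± 0.0151 of Zeb1 in CD24- cells and at 0.383 ± 0.0294 in CD24+ cells (SD, n = 3 each). Twist2 went from 0.0496 ± 0.00982 of Twist1 to 0.451 ± 0.0673, and Snai2 from 0.0228 ± 0.00478 of Snai1 to 0.215 ± 0.0300. In each of these pairs the ratio was higher in every CD24+ library than in any CD24- library. Prrx2 went from 2.004 ± 0.815 times Prrx1 to 1.11 ± 0.234 times, with overlapping plates. An exact two-sided permutation test of each log2 ratio gave p = 0.1 for Zeb, Snail and Twist, the smallest p that 3 libraries against 3 allow, and p = 0.2 for Prrx. Adjusted over the 4 ratios, the exact p-values were 0.133 and 0.2, so none could pass.

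Reads were also divided by the region of the gene they matched, as a description of where each difference lay. For Zeb1 the ratio of mean CPM, CD24+ over CD24-, was 0.757 in coding sequence and 0.812 in the 3' UTR, without overlap of the groups in either region. Prrx1 rose in every region, from 15.5 times in the 5' UTR to 19.2 times in coding sequence and 19.6 times in the 3' UTR. Reads matching only the Prrx1 transcripts of GENCODE M21 whose last exon lies farther downstream numbered 22, 28 and 26 in CD24- libraries and 305, 823 and 1147 in CD24+ libraries, and those matching only the transcript with the earlier end numbered 7, 8 and 1 against 68, 145 and 265. Both ends of Prrx1 were thus higher in every CD24+ library.

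The coding reads of Snai1 overlapped between the groups (ratio 1.02), while its 3' UTR reads did not (1.22). Tcf4 stood at 1.76 times in coding sequence and 2.13 times in the 3' UTR, and Foxc2 at 3.57 and 5.82 times. Twist2 reads that matched no annotated transcript made up 45.0% of its CD24- reads and 12.99% of its CD24+ reads. The mean CPM of those reads was 2.82 times as high in CD24+ cells, against 14.6 times for its coding reads and 16.1 times for its 3' UTR reads. On reads that match transcripts of 1 gene alone, the log2 fold-change of Twist2 was 3.93 (edgeR, adjusted p = 3.39e-06).

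**Figure D4:**
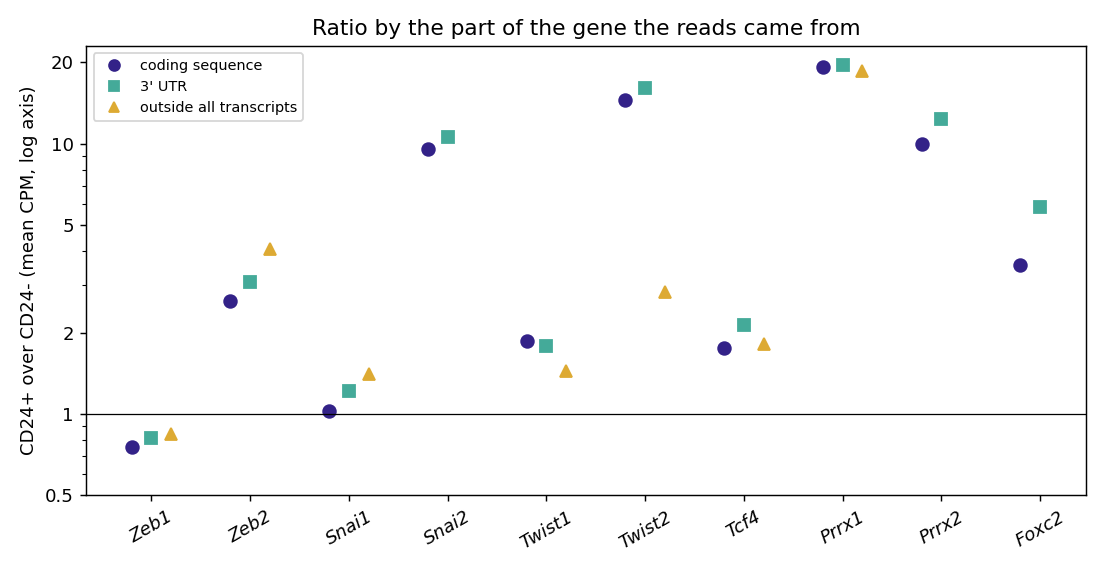
Ratio of mean CPM, CD24+ over CD24-, by the region that the reads of a member matched (log axis). Points are shown where both groups had at least 5 reads, and the line at 1 marks equal means. Coding and 3' UTR points lie close together for most members, and the Twist2 point outside transcripts (2.82) lies well below its coding point (14.6).

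Twist and Tcf4 proteins act as dimers, so their partners and the Id proteins, which bind E proteins and keep them off DNA, were examined next. Of 6 such genes, Id2 was higher and Id4 lower in CD24+ cells, and the other 4 did not pass. That is 2 of 6 called, against 46.1% of all genes. Id2 went from 11.3 ± 1.6 to 25.3 ± 9.7 CPM (SD over 3 plates), a log2 change of 1.19 (edgeR, adjusted p = 0.00269). Id4 had 19, 22 and 25 reads in CD24- libraries and 1, 11 and 13 in CD24+ libraries (log2 change -1.99, edgeR, adjusted p = 0.00143), and passed the filter only through its CD24- libraries. The groups did not overlap for either gene.

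The E proteins Tcf3 (annotated Tcfe2a) and Tcf12 stood at log2 fold-changes of 0.14 and 0.17 (adjusted p = 0.141 and 0.151, edgeR), and neither passed. This does not show equal levels, since every CD24+ library was above every CD24- one for both. Among the 6 genes the groups did not overlap for 4, against 57.3% of all genes. On reads matching 1 GENCODE gene only, Tcf3 passed at 0.23 (edgeR, adjusted p = 0.0327). Whether Tcf4 differed from Tcf3 and Tcf12 was not tested. Id1 and Id3 were at -0.53 and -0.48 (adjusted p = 0.0959 and 0.0555, edgeR). Id3 passed as lower on all 6 libraries with DESeq2 (adjusted p = 0.0156), without TMM (edgeR, 0.0469), with no filter (edgeR, 0.021) and with the replicate block (edgeR, 0.0214). On all 6 libraries Id1 passed as lower only with no filter (-0.52, edgeR, adjusted p = 0.0404). The count also moved with single plates. Without CD24- replicate 1, and likewise without CD24+ replicate 2, 1 gene was higher and 3 were lower. Over all genes, 4069 of 11256 were called in the former fit and 4990 of 11219 in the latter.

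Of 17 other transcription factors linked to EMT, 11 were tested, 5 were higher and 1 was lower in CD24+ cells, with a median log2 fold-change of 0.11. These 6 of 11 stand against 46.1% called over all genes, 23.8% higher and 22.3% lower. Tbx3, a T-box repressor of mammary development, rose most, from 12, 3 and 5 reads in CD24- libraries to 32, 112 and 128 in CD24+ libraries (log2 change 3.13, edgeR, adjusted p = 7.01e-05), and passed the filter only through the latter. The AP-1 subunit Fosl1 was the one that fell, from 93.5 ± 26 CPM to 61.0 ± 3.5 CPM (mean ± SD of 3 plates; edgeR, log2 change -0.61, adjusted p = 0.0107). The members thus had the higher median, 1.79 against 0.11, though no test compared the lists. These medians include Snai2 and Tbx3, which passed the filter only through their CD24+ libraries.

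Factors known to hold the epithelial state mostly had few reads or none. Of 14 listed, 12 were not tested, 3 of which had no reads. Grhl2, a grainyhead factor, was among the untested, with 0, 2 and 1 reads in CD24- libraries and 0, 4 and 2 in CD24+ libraries. Of the 2 tested, Klf4, a zinc-finger factor of epithelia, rose from 16.0 ± 1.3 CPM to 64.4 ± 11 CPM (mean ± SD of 3 plates; edgeR, log2 change 2.02, adjusted p = 1.58e-06). Gata3, the luminal mammary factor, fell from 88.4 ± 6.5 CPM to 51.8 ± 6.8 CPM (log2 change -0.76, edgeR, adjusted p = 2.59e-04). No annotation of the miR-200 family or miR-205, small RNAs known to repress Zeb1 and Zeb2, had reads in these mRNA libraries.

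Genes that the members are known to repress were then counted. Of 28 junction, polarity, keratin and other epithelial genes, 13 had enough reads. Of these, 6 were lower and 3 higher in CD24+ cells, where 22.3% and 23.8% of all genes were. The median log2 fold-change was -0.27. Each of the 3 higher genes, Cldn1, Cldn3 and Patj, passed the filter only through its CD24+ libraries. So did Lsr, which was not called (log2 change 0.78, edgeR, adjusted p = 0.0894). The median includes these 4 genes, all with positive log2 fold-changes, and would be lower without them. Under the median-coverage estimate 9 of the targets could be tested, of which 7 were lower and 0 higher, where 18.4% and 16.9% of all genes were by that estimate. Occludin (Ocln), a tight junction protein, fell most, from 509, 627 and 370 reads in CD24- libraries to 17, 70 and 45 in CD24+ libraries (log2 change -4.08, edgeR, adjusted p = 2.2e-07). Patj (annotated Inadl), a scaffold of the Crumbs polarity complex, rose most, from 4, 7 and 5 reads to 21, 59 and 58 (log2 change 2.52, edgeR, adjusted p = 6.8e-05).

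The defining epithelial genes could not be compared. Cdh1, the gene of E-cadherin, had no reads in CD24- libraries and 0, 1 and 1 in CD24+ libraries. Epcam had 0, 2 and 1 against 0, 3 and 0. A difference in either was not detectable at this depth.

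The E-box CAGGTG, or CACCTG on the other strand, was searched in the 250 bases before each RefSeq gene start (GRCm38.p6). It was present in 17.2% of 32851 such windows. In the list of repressed targets 19 of 28 genes had an entry, with 25 windows, and 13 windows (52.0%) of 12 genes held it. Several of these genes are known as targets through this motif, so the share only describes the list. Among the called genes with an entry, the motif was held by Ocln, Krt8 and Krt18, which fell, and by Patj, which rose. Sdc1, which fell, and Cldn1 and Cldn3, which rose, held none. The windows of Ocln, which fell most, and of Epcam, with almost no reads, are shown 5′ to 3′ on the strand of the gene with the E-boxes in capitals. Ocln is from chr13:100552499-100552748 (minus strand) and is the one of its 2 windows with E-boxes, and Epcam is from chr17:87635729-87635978 (plus strand).
Ocln: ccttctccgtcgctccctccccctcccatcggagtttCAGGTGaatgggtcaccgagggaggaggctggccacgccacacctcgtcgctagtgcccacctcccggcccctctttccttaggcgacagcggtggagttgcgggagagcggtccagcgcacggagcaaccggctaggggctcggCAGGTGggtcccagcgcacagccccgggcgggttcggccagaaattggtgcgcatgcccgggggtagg
Epcam: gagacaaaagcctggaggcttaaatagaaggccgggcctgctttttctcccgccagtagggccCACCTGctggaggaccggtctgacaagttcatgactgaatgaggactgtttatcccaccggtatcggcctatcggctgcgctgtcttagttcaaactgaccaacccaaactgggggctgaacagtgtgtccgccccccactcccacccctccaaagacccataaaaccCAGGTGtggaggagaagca
In the Ocln window the E-boxes began 213 and 68 bases before the start, and in the Epcam window 187 and 19 bases before it. These letters show a sequence, not a bound site.

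Most of the mesenchymal genes that were tested were higher in CD24+ cells. Of 20 listed, 19 were tested, of which 13 were higher and 1 was lower, where 23.8% and 22.3% of all genes were. Of the 13, 4 (Acta2, Col1a1, Col1a2 and Mmp2) passed the filter only through their CD24+ libraries. The median log2 fold-change of the tested genes was 1.43. It includes these 4 genes and is itself the value of Col1a2, so the filter helped to set it. N-cadherin (Cdh2) had 36, 44 and 34 reads in CD24- libraries and 360, 950 and 977 in CD24+ libraries (log2 change 3.77, edgeR, adjusted p = 1.5e-08). Smooth muscle actin (Acta2) rose most, from 1, 8 and 7 reads to 39, 97 and 237 (3.87, edgeR, adjusted p = 1.57e-04). Tenascin C (Tnc), a matrix protein, was the one that fell (-1.39, edgeR, adjusted p = 0.0165), and passed the filter only through its CD24- libraries.

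Vimentin (Vim), the intermediate filament of mesenchymal cells, was abundant in both groups and overlapped between them (log2 change 0.17, edgeR, adjusted p = 0.248). Under the median-coverage estimate 10 genes of the list could be tested, of which 6 were higher and 0 lower, beside 16.9% and 18.4% of all genes by that estimate.

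**Figure D5:**
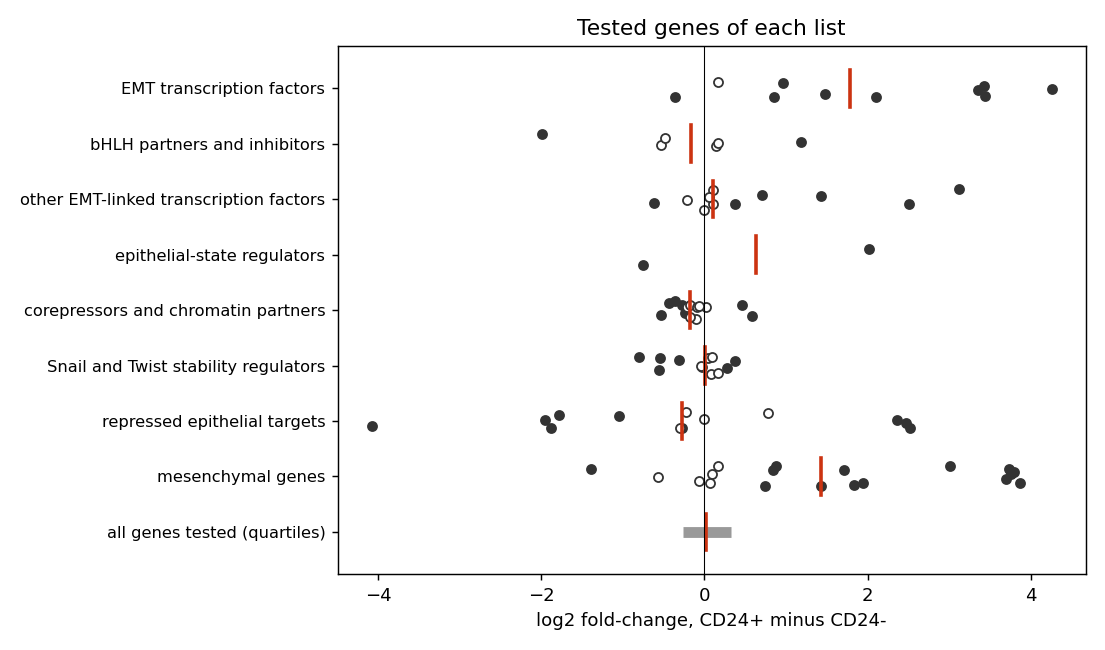
Log2 fold-change, CD24+ minus CD24-, of each tested gene of the members and of the lists of partners, other factors, regulators, targets and mesenchymal genes (filled, adjusted p below 0.05; open, not), with the median of each list in red. The grey bar is the range between the quartiles of all 11125 genes (-0.27 to 0.32), and the members (1.79) and mesenchymal genes (1.43) have the medians farthest to the right. Both medians include genes that passed the filter on low counts only through their CD24+ libraries.

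Markers of other cell types were read beside these results. Fibroblast markers summed to 4.51 to 9.01 CPM in CD24- libraries and 11.2 to 15.4 CPM in CD24+ libraries. Of 8 markers 2 were tested and both were higher, as were 23.8% of all genes. They were decorin (Dcn, 1, 1 and 0 reads against 13, 18 and 59, edgeR, adjusted p = 7.87e-04) and Pdgfra. Pdgfra, also in the mesenchymal list, made up most of each sum and overlapped between the groups (4.17 to 8.44 against 8.34 to 13.5 CPM). Dcn passed the filter only through its CD24+ libraries. Thy1 and Lum had no reads in any library, and Fap had 2 in all. Col15a1, also untested, went the other way, with 3, 2 and 1 reads against 1, 0 and 0. Dpt had 1, 3 and 2 reads against 2, 6 and 3, and Pi16 had 1, 0 and 0 against 2, 1 and 3.

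Basal and myoepithelial markers summed to 0.526 to 1.47 CPM in CD24- libraries and 6.72 to 14.2 CPM in CD24+ libraries, most of it Acta2 in CD24+ libraries, while Krt5 and Krt14 were at 0 in every CD24- library and at 0 to 2 reads in CD24+ ones. Trp63, a factor of basal cells too low to be tested, had 0, 3 and 0 reads against 7, 17 and 27, and the groups did not overlap. The oxytocin receptor gene Oxtr, also too low to be tested, went the other way, with 2, 2 and 4 reads against 0, 2 and 1 and no overlap in CPM. The remaining untested markers, Krt17 and Myh11, had 0 to 2 reads in every library. Luminal markers went the other way, with 1858 to 2051 CPM against 778 to 922 CPM. Of the 4 luminal markers tested 3 were lower (22.3% of all genes were), Krt19 by the most (log2 change -1.96, edgeR, adjusted p = 9.6e-06), and the estrogen receptor gene Esr1 was higher (1.25, edgeR, adjusted p = 6.9e-05). The luminal keratins are also in the list of repressed targets.

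Immune markers summed to 46.7 to 80.7 CPM in CD24- libraries and 7.17 to 9.60 CPM in CD24+ libraries. Nearly all of this was Cd68, a lysosomal protein of macrophages that other cells also hold, with 706, 803 and 385 reads against 60, 123 and 154 (log2 change -3.03, edgeR, adjusted p = 2.37e-06). The myeloid integrin Itgam had 36, 47 and 29 reads against 0, 0 and 1 and passed the filter only through its CD24- libraries, while Cd3e, Adgre1 and Tyrobp had no reads and Ptprc had 2. Endothelial markers summed to 2.71 to 4.74 CPM against 0.786 to 2.05 CPM. Of 7 markers 2 were tested and 1 was lower, where 22.3% of all genes were. Cdh5 was lower (log2 change -3.23, edgeR, adjusted p = 2.78e-04), having passed the filter only through its CD24- libraries. Tek did not pass (-0.49, edgeR, adjusted p = 0.375), with overlapping groups. Of the untested, Vwf had 6, 7 and 4 reads against 1, 5 and 2, and Pecam1 3, 1 and 0 against 2, 3 and 0. Kdr and Tie1 had 0 to 2 reads in every library, and Emcn had none. The part of any such cells in the values of the members was not tested beyond these levels.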

How the data were processed

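Messenger RNA libraries of 3 plates each of CD24- and CD24+ Mvt1 cells were sequenced as 51-nt single-end reads, of which the authors trimmed 2 nt at each end. They collapsed the 47-nt reads, mapped them by exact match and gave each sequence 1 annotation. The deposited values are counts of each mapped sequence per library, not normalized. The submitters' processing notes name mm9 as the build, and neither mapper nor annotation source is given in the sources used here. Exact matching loses reads over exon junctions and variants.

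The counts of an annotation were added up per library. There were 16024 annotations, and 14765 of them name a gene (12446 by a current symbol, 1981 by a synonym). Reads without annotation (16.9% to 20.2% of a library) or annotated to repeats and other noncoding features (8.03% to 10.6%) were left out. Libraries of a group differed by more than sampling noise, so none was taken as a repeat. Chi-square over degrees of freedom was 1.75 for CD24- replicates 1 and 2, and 9.69 to 15.9 for the other pairs. CD24- replicates 1 and 2 were thus by far the closest, and whether they come from 1 preparation is not stated. Genes passing edgeR's filterByExpr were tested in R 4.3.3 with edgeR 4.0.16 (quasi-likelihood F test with TMM, p adjusted by Benjamini-Hochberg, threshold 0.05) over all 6 libraries, without covariates. Reads were matched by exact sequence to transcripts of GENCODE M21 (GRCm38) for regions, levels per length and the median-coverage estimate. That estimate takes 1 transcript per gene, was tested with limma 3.58.1 and is not the study's own table. Promoter sequences are from RefSeq. The scripts were tested on simulated data.

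The members and the gene lists were chosen with earlier results of these data known. The text names the 10 members, of each list the called gene that rose most and the one that fell most, Cd24a, Cdh1, Epcam, Vim, Cdh2, Tcf3, Tcf12, Id1 to Id4, Grhl2, and the 3 genes most like Tcf4 and Prrx1 in log2 CPM over the libraries among genes whose mean log2 CPM was 3 or more. Defining markers of other cell types, and other genes whose levels stand beside a count, were named after their values were seen. Alternatives were DESeq2 1.42.0, gene totals without TMM, distinct sequences counted once, other filters on low counts, reads matching 1 GENCODE gene only, the median-coverage estimate, the replicate number as a block, a minimum fold-change and each library left out in turn.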

Additional observations from a re-analysis of the deposited data

How the results depend on the processing

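The counts of called genes over all genes and over 5 lists (the members, bHLH partners and inhibitors, epithelial-state regulators, repressed targets and mesenchymal genes) were computed again with the alternatives, while those over the other lists were not. A minimum fold-change was applied only to all genes and the members. Of 86 such counts 79 stayed within 1.5 times the value reported. Of 137 values for single members, 135 had the same sign and stayed on the same side of 0.05. The filter of at least 1 CPM in 3 libraries called 5130 of 11125 genes, as the main fit did, with unchanged member values. Its share of these counts is therefore no further check. With a minimum log2 fold-change of 1 the count over all genes was 1600 against 5130, since the threshold itself removes genes. The median-coverage estimate called 3189 of 9032 genes tested, 1 of 5 bHLH partners and inhibitors (against 2) and 6 of 10 mesenchymal genes (against 14). With no filter on low counts 4 bHLH partners and inhibitors were called, beside 5495 of 14765 genes over all. Leaving out 1 library at a time gave 2 to 4 of these partners and inhibitors and 4069 to 5358 genes over all. The count of 4 came without CD24- replicate 1 and without CD24+ replicate 2. The log2 fold-change of Snai1 turned to -0.027 under the median-coverage estimate, and that of Zeb1 was -0.24 (adjusted p = 0.0975, edgeR) with each distinct sequence counted once. The cause was not tested where none is given. For Prrx1, Snai2 and Twist2 the median coverage of the 1 transcript taken, after quantile normalization, reached 1 in fewer than 3 libraries. They have no value under the median-coverage estimate. Prrx1 and Twist2 had more reads per length in CD24+ cells (14.4 and 23.7 RPKM) than Foxc2 (3.66 RPKM), which was tested. Only reads matching 1 GENCODE gene entered the median coverage, so reads that Twist2 shares with Gm29100 in its first exon were left out. Why the median coverage of Prrx1 and Twist2 fell short was not tested. With 1 library left out, every member that passed still passed, Zeb1 with an adjusted p of at most 0.028 (edgeR). The groups share replicate numbers, but same-numbered libraries did not deviate together (correlations of 0.0143, -0.251 and -0.310), so pairing by number was not seen. Shared deviations between libraries of unlike number were not examined. A fit with the replicate block called 4493 genes, 9 members among them. Depth limits Snai2 most, which had 13 reads over the CD24- libraries.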

Other observations

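Corepressors and chromatin proteins that Snail and Zeb proteins are known to recruit were counted too. All 14 listed were tested, with 2 higher and 5 lower in CD24+ cells, where 23.8% and 22.3% of all genes were. Their median log2 fold-change was -0.17, and 11 of the 14 log2 fold-changes were negative. Ajuba (annotated Jub), a LIM protein known to bind Snai1, rose most, from 76.5 ± 24 to 114 ± 5.8 CPM (mean ± SD of 3 plates; edgeR, log2 change 0.58, adjusted p = 0.0206). Ezh2, the methyltransferase of the Polycomb complex, had the largest fall, from 159.6 ± 13 to 109.7 ± 11 CPM (edgeR, log2 change -0.54, adjusted p = 0.00118). Of 12 kinases, ubiquitin ligases and other enzymes known to set the stability of Snail and Twist proteins, 2 were higher and 4 lower, against the same shares of all genes, with a median of 0.01. Usp9x, a deubiquitinase, had the largest fall, from 433 ± 12 to 248 ± 20 CPM (edgeR, log2 change -0.80, adjusted p = 2.9e-05), and the Hippo kinase Lats2 rose most, with overlapping groups (0.37, edgeR, adjusted p = 0.0463). Protein levels were not measured.

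The genes most like Tcf4 in log2 CPM over the 6 libraries were Ift80 (Pearson r = 0.998), Gstm1 (0.997) and Gbp6 (0.997). Those most like Prrx1 were Slc31a1, Sphk1 and Tnfrsf21 (0.999 each). All of these points share the 2 groups of libraries, and 184 of 9204 genes compared had r above 0.99 with Prrx1, against 14 with Tcf4. Sphk1, a sphingosine kinase, and Tnfrsf21, a death receptor, were higher in CD24+ cells by 3.55 and 3.57 on the log2 scale. Slc31a1 was higher by only 0.48, so a high r does not go with a like size of change.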
